A study of Homo sapiens with 4 samples.

Results

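Aminoacyl-tRNA synthetases are the enzymes that join each amino acid to its tRNA. The genes of these enzymes were taken from the RNA-Seq table by symbol, as all names of the form xARS, xARS1, xARS2 or xARS3, together with EPRS1, FARSA and FARSB. AIMP1, AIMP2 and EEF1E1, the 3 non-enzyme proteins of the multi-synthetase complex, were added. This gave 41 of the 16717 genes of the table. They were 21 cytosolic enzyme genes, 17 mitochondrial enzyme genes and the 3 complex proteins. GARS1 and KARS1, whose genes encode both a cytosolic and a mitochondrial enzyme, were counted as cytosolic. The RNA came from Cal-62, an established cell line of anaplastic thyroid carcinoma. Niraparib blocks PARP1 and PARP2, which act in DNA repair. There were 2 libraries of niraparib-treated cells and 2 of cells given DMSO, the solvent. No genetic change separates the groups, and the concentration and the length of the treatment behind these libraries are not given in the sources used here. Nothing in the sources says that the 2 libraries of a group came from separate cultures, so p-values measure the spread between libraries, which may be technical.

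A cell needs a charged tRNA for every amino acid, and most amino acids have one enzyme in the cytosol and another in mitochondria, each from its own nuclear gene. Several cytosolic enzymes are held together with AIMP1, AIMP2 and EEF1E1 in the multi-synthetase complex, and the others work outside it. When amino acids run short, uncharged tRNA activates the kinase GCN2, and translation of the transcription factor ATF4 then increases. ATF4 binds DNA with partners of the C/EBP family at a composite element, and the genes of many cytosolic synthetases are among its known targets.

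Promoter windows are shown because the composite element is a known feature of this gene family. No link between the element and the calls was tested. These windows came from RefSeq (GRCh38.p14) and run from 250 bases before the start of a gene to 50 bases after it. A window was found for 33 of the 41 genes. There was none for YARS1, TARS3, LARS1, VARS1, VARS2 and AARS2, among others. The composite element was searched as TGATGNAA on both strands, which reads TTNCATCA on the other strand. Some genes had several windows, and a gene was counted if any of its windows matched. The element occurred in 7 of 16 cytosolic genes with a window (43.8%) and in 1 of 14 mitochondrial ones (7.14%). It was in 0 of the 3 complex proteins and in 297 of the 11349 genes of the table with a window (2.62%). The other windows of CARS1, GARS1 and TARS1 held no match. The 8 matches are shown with 10 bases on either side, 5′ to 3′ on the strand of the gene, and capitals mark the element.
AARS1 (chr16:70289676-70289703, minus strand): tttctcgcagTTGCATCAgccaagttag
CARS1 (chr11:3057408-3057435, minus strand): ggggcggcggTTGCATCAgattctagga
GARS1 (chr7:30594835-30594862, plus strand): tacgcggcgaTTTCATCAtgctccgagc
MARS1 (chr12:57488054-57488081, plus strand): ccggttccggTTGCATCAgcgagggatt
NARS1 (chr18:57621805-57621832, minus strand): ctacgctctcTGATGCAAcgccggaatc
IARS1 (chr9:92293693-92293720, minus strand): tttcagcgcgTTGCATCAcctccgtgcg
TARS1 (chr5:33440957-33440984, plus strand): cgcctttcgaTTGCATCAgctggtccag
YARS2 (chr12:32756077-32756104, minus strand): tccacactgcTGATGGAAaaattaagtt
AARS1, CARS1 and GARS1 were higher with niraparib, IARS1, TARS1 and YARS2 were lower, and MARS1 and NARS1 did not pass the test. In 6 of the cytosolic matches the element lay within 33 bases of the start, and in AARS1 its first base was at −187. The 5 matches of AARS1, CARS1, MARS1, IARS1 and TARS1 had the same 8 bases, and NARS1 had them on the other strand. Of the cytosolic genes that were higher, 3 of 6 with a window held the element, against 2 of 6 of those that were lower and 2 of 4 of those that did not pass. WARS1, SARS1 and QARS1, all higher, had no match in their windows. A match is a string of letters and not a measured binding site. The second motif searched was the E-box CACGTG, which reads the same on both strands. It occurred in 5 of the 33 genes with a window (15.2%), which were AIMP2, IARS1, CARS2, EARS2 and MARS2. Among the genes of the table with a window the share was 12.4%.

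To place the element in a gene that was higher and in one that was lower, the 250 bases before the start of AARS1 and of IARS1 are given. Capitals mark the composite element, and in IARS1 also the E-box further upstream. The 2 motifs do not overlap.
AARS1 (chr16:70289507-70289756, minus strand): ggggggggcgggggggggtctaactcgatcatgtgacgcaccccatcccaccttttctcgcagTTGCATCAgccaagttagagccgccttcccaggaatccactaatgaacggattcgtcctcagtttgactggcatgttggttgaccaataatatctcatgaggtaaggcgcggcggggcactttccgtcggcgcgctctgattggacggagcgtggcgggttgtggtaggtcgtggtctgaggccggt
IARS1 (chr9:92293698-92293947, minus strand): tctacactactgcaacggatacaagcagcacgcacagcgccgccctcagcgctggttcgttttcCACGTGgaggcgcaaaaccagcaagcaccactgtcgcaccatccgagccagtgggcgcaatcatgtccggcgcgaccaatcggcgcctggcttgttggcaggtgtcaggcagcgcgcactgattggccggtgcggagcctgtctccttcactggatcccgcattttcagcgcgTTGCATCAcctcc

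The values are TPM, which correct the reads of a gene for transcript length and for the total of each library. They are relative amounts. In a bulk sample, fewer cells that express a gene and less of its RNA per cell cannot be told apart. TPM summed to between 994264 and 995353 per library. It keeps no read counts, so the depth is unknown. Of the genes of the table, 13377 had at least 1 TPM in at least 2 libraries, and all 41 genes were among them. They were compared as log2(TPM + 1) with limma, and fold changes below are on that scale, niraparib minus DMSO, with a threshold of 0.05 on the Benjamini-Hochberg adjusted p over all 13377 genes. Adjusted p below is this one unless an alternative fit is named, where it runs over the genes of that fit. Of all genes tested 32.4% passed, 20.8% as higher with niraparib and 11.7% as lower, and the groups did not overlap for 70.9%. The log2 fold change had a median of 0.07 over these genes. Thyroid and epithelial identity was read from markers. PAX8, a thyroid transcription factor, was at 196 to 207 TPM with niraparib and at 189 to 191 TPM with DMSO. The keratin KRT8 was higher, with 1199 and 1172 TPM with niraparib and 1078 and 1080 TPM with DMSO. The keratin KRT18 was lower, with 1200 and 1175 TPM with niraparib and 1301 and 1265 TPM with DMSO. CDH1 was at 0.28 TPM or less. KRT19 was higher, with 639 and 641 TPM with niraparib and 330 and 341 TPM with DMSO, and EPCAM did not pass (27.6 to 29.6 TPM with niraparib, 27.3 to 27.9 TPM with DMSO). Of 7 thyroid markers, PAX8 and FOXE1 were tested, and the others are not reported here. FOXE1 was higher, with 4.61 and 3.63 TPM with niraparib and 1.95 and 2.21 TPM with DMSO. Of the mesenchymal markers, FN1 was higher, with 1756 and 1797 TPM with niraparib and 1115 and 1135 TPM with DMSO, VIM was higher, with 2306 and 2298 TPM with niraparib and 2040 and 2015 TPM with DMSO, and CDH2 did not pass. Of 6 markers of other cells, COL1A1 and CD68 have a row, and both were higher. COL1A1 had 142.5 and 136.9 TPM with niraparib and 63.1 and 64.1 TPM with DMSO. CD68 had 31.3 and 36.3 TPM with niraparib and 20.1 and 19.6 TPM with DMSO. Their summed level was 173 to 174 TPM with niraparib and 83.2 to 83.7 TPM with DMSO. The part of these marker changes in the results below was not tested.

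Of the 41 genes, 7 were higher, 14 were lower and 20 did not pass the test. The groups did not overlap for 33 of the 41. Read against the background, the share lower is larger than among all genes and the share higher is about the same. All 7 higher genes were cytosolic enzymes. Of the cytosolic enzymes 7 were higher, 7 lower and 7 not called, with a median log2 fold change of −0.01. Of the mitochondrial enzymes 0 of 17 were higher, 5 were lower and 12 were not called, with a median of −0.06. Among those not called, PARS2, VARS2 and TARS2 had log2 fold changes of 0.36 ± 0.18, 0.35 ± 0.11 and 0.30 ± 0.11 (SE). The called cytosolic enzymes YARS1 and GARS1 had smaller ones, 0.24 ± 0.05 and 0.21 ± 0.06. A call thus depends on the SE as well as on the fold change. Of the complex proteins 2 of 3 were lower. With scaling by the median of ratios in place of TPM alone, 5 of the 41 were higher and 17 lower, and 1994 genes of all were higher and 2237 lower, in place of 2780 and 1559. At 1.5-fold or more, WARS1 and AARS1 were higher, against 10.5% of all genes, and EEF1E1, NARS2 and WARS2 were lower, against 3.59% of all genes.

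**Figure D1:**
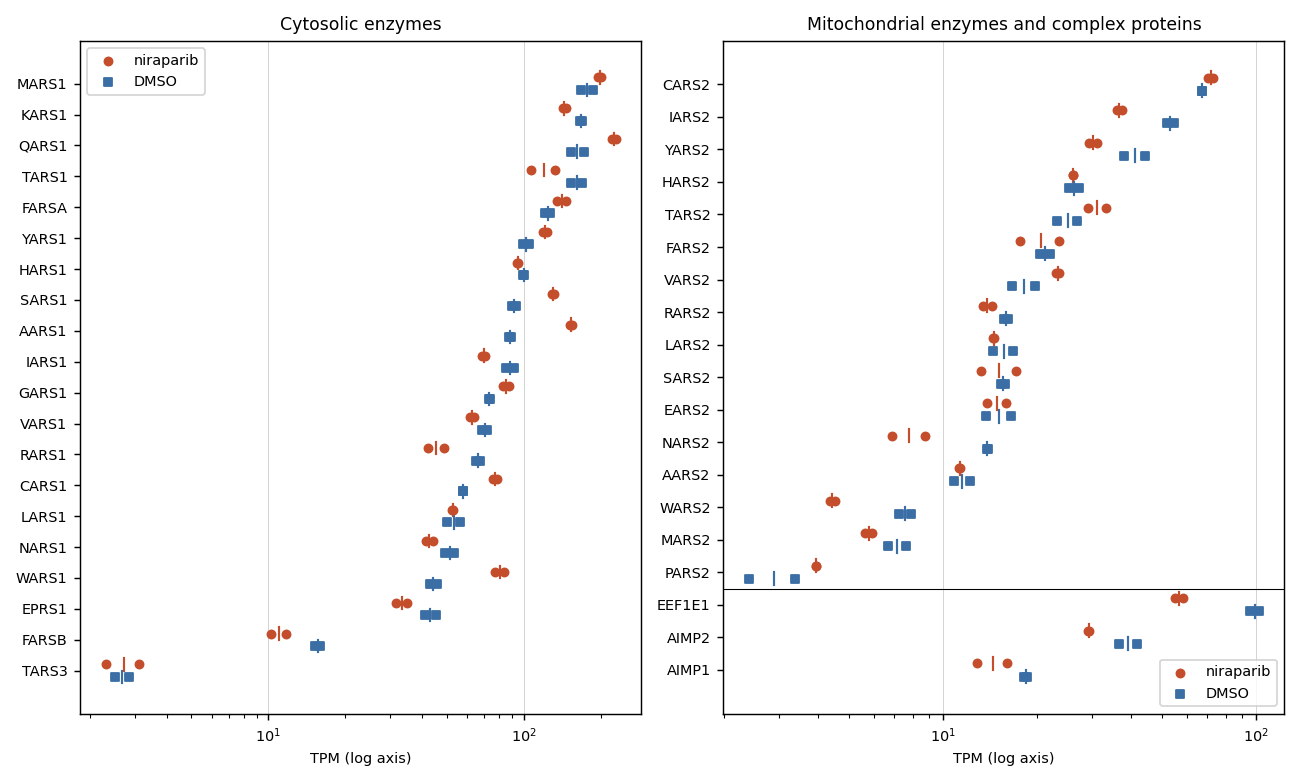
TPM of 39 of the 41 genes in each library on a log axis, with circles for niraparib, squares for DMSO and a tick at each group mean. Cytosolic enzymes are in the left panel, mitochondrial enzymes and the complex proteins in the right one, and the mitochondrial enzymes lie lower, with summed TPM of 352 and 353 with niraparib and 373 and 401 with DMSO.

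The cytosolic enzymes were expressed more highly than the mitochondrial ones. Their summed TPM was 1902 and 1939 in the niraparib libraries, against 1773 and 1792 in the DMSO libraries. The mitochondrial sum was 353 and 352 with niraparib, against 401 and 373 with DMSO. The ratio of the sums was 5.39 and 5.51 with niraparib and 4.42 and 4.81 with DMSO. By this sum, both niraparib libraries had a larger cytosolic excess than both DMSO libraries. A sum weighs abundant genes most, and of the cytosolic enzymes 7 were higher and 7 lower. The ratio of median TPM was 4.86 and 4.83 with niraparib and 4.36 and 4.67 with DMSO. These ratios were not tested.

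Tryptophanyl-tRNA synthetase WARS1 (chromosome 14, 100800127 to 100843142, GRCh37) was higher with niraparib. It had 84.0 and 77.0 TPM with niraparib, against 45.5 and 42.9 TPM with DMSO. The log2 fold change was 0.85 ± 0.07 (SE, n = 2 each), with adjusted p = 0.00289 by limma. The niraparib libraries were well above the DMSO libraries. Alanyl-tRNA synthetase AARS1 (chromosome 16, 70285886 to 70323610) had 152 and 155 TPM with niraparib, against 89.2 and 87.5 TPM with DMSO. The log2 fold change was 0.79 ± 0.05, with adjusted p = 0.00168. These 2 calls were kept in all 15 alternatives.

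Seryl-tRNA synthetase SARS1 (chromosome 1, 109756540 to 109780804) had 128 and 131 TPM with niraparib, against 89.6 and 92.9 TPM with DMSO, a log2 fold change of 0.50 ± 0.05. Glutaminyl-tRNA synthetase QARS1 had 221 and 229 TPM with niraparib, against 172 and 152 TPM with DMSO, a log2 fold change of 0.47 ± 0.07. Cysteinyl-tRNA synthetase CARS1 had 78.8 and 76.0 TPM with niraparib, against 57.7 and 58.0 TPM with DMSO, a log2 fold change of 0.41 ± 0.06. In all 3 genes the groups were apart, and the adjusted p was 0.00379, 0.00798 and 0.00711. QARS1 is the only gene of the complex that was higher, and it missed the threshold once GC content was adjusted and the libraries centred (adjusted p = 0.0566).

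Tyrosyl-tRNA synthetase YARS1 had 123 and 119 TPM with niraparib, against 99.4 and 105 TPM with DMSO, a log2 fold change of 0.24 ± 0.05. Glycyl-tRNA synthetase GARS1, which serves both compartments, had 83.1 and 87.5 TPM with niraparib, against 73.1 and 73.6 TPM with DMSO, a log2 fold change of 0.21 ± 0.06. Both passed narrowly, with adjusted p = 0.0275 and 0.0381. Neither call was kept when any 1 of the 4 libraries was left out, with adjusted p from 0.0609 to 0.134 for YARS1 and from 0.0686 to 0.150 for GARS1. Both were lost as well with scaling by the median of ratios (adjusted p = 0.106 and 0.174).

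Among the 7 lower cytosolic enzymes, arginyl-tRNA synthetase RARS1 had the lowest log2 fold change. It had 42.3 and 48.6 TPM with niraparib, against 64.98 and 67.38 TPM with DMSO. The log2 fold change was −0.54 ± 0.08, with adjusted p = 0.0103, and the call was kept without any 1 library. The DMSO libraries were higher than both niraparib libraries. FARSB, the beta subunit of phenylalanyl-tRNA synthetase, had 10.3 and 11.7 TPM with niraparib, against 15.2 and 16.0 TPM with DMSO, a log2 fold change of −0.47 ± 0.11 with adjusted p = 0.0271. Threonyl-tRNA synthetase TARS1 had 107 and 132 TPM with niraparib, against 153 and 169 TPM with DMSO. Its log2 fold change was −0.43 ± 0.11, with adjusted p = 0.0384, and the SD of its niraparib libraries, 18.0 TPM, was the largest of the cytosolic enzymes.

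EPRS1, which carries glutamyl- and prolyl-tRNA synthetase in one protein, had 31.5 and 34.9 TPM with niraparib, against 45.2 and 41.1 TPM with DMSO, a log2 fold change of −0.37 ± 0.09 with adjusted p = 0.0315. Isoleucyl-tRNA synthetase IARS1 (chromosome 9, 94972489 to 95056136) had 68.8 and 70.8 TPM with niraparib, against 91.5 and 85.2 TPM with DMSO, a log2 fold change of −0.34 ± 0.06 with adjusted p = 0.0147. Lysyl-tRNA synthetase KARS1, which serves both compartments, had 142 and 146 TPM with niraparib, against 169 and 167 TPM with DMSO, a log2 fold change of −0.22 ± 0.04 with adjusted p = 0.0205. The groups did not overlap in any of the 3. The calls of KARS1, IARS1, EPRS1, TARS1 and FARSB were kept without niraparib replicate 2, with adjusted p from 0.0260 (TARS1) to 0.0497 (EPRS1), and were lost without other libraries. Without niraparib replicate 1 the adjusted p was 0.0753 for KARS1, 0.0670 for IARS1, 0.115 for EPRS1, 0.0946 for TARS1 and 0.0910 for FARSB. Without DMSO replicate 1 it was 0.103 for KARS1, 0.0772 for IARS1, 0.140 for EPRS1, 0.0735 for TARS1 and 0.0885 for FARSB. Without DMSO replicate 2 it was 0.0773 for KARS1, 0.0580 for EPRS1, 0.141 for TARS1 and 0.112 for FARSB, and IARS1 was kept (adjusted p = 0.0363).

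The 7 cytosolic enzymes that did not pass were FARSA, the alpha subunit of phenylalanyl-tRNA synthetase (log2 fold change 0.18), and those for methionine (MARS1, 0.16), leucine (LARS1, −0.01), histidine (HARS1, −0.08), valine (VARS1, −0.15) and asparagine (NARS1, −0.26), and TARS3, a second threonyl enzyme (0.01). TARS3 was the lowest cytosolic gene, with 3.12 and 2.31 TPM with niraparib and 2.85 and 2.50 TPM with DMSO. NARS1 was close to the threshold (adjusted p = 0.0526), and NARS1, HARS1 and VARS1 were called lower with scaling by the median of ratios. HARS1 and VARS1 were also called lower once GC content was adjusted, at log2 fold changes of −0.17 and −0.42. FARSA and FARSB form one enzyme with 2 kinds of subunit. Their ratio of TPM was 14.2 and 11.5 with niraparib and 7.96 and 7.94 with DMSO, with both niraparib libraries above the DMSO libraries. The GC content is 60.3% for FARSA and 40.0% for FARSB. After GC adjustment their log2 fold changes were −0.07 and −0.24, in place of 0.18 and −0.47, and the call of FARSB was lost (adjusted p = 0.126). For QARS1 over EPRS1, both of the complex, the ratio was 7.02 and 6.55 with niraparib and 3.80 and 3.71 with DMSO.

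**Figure D2:**
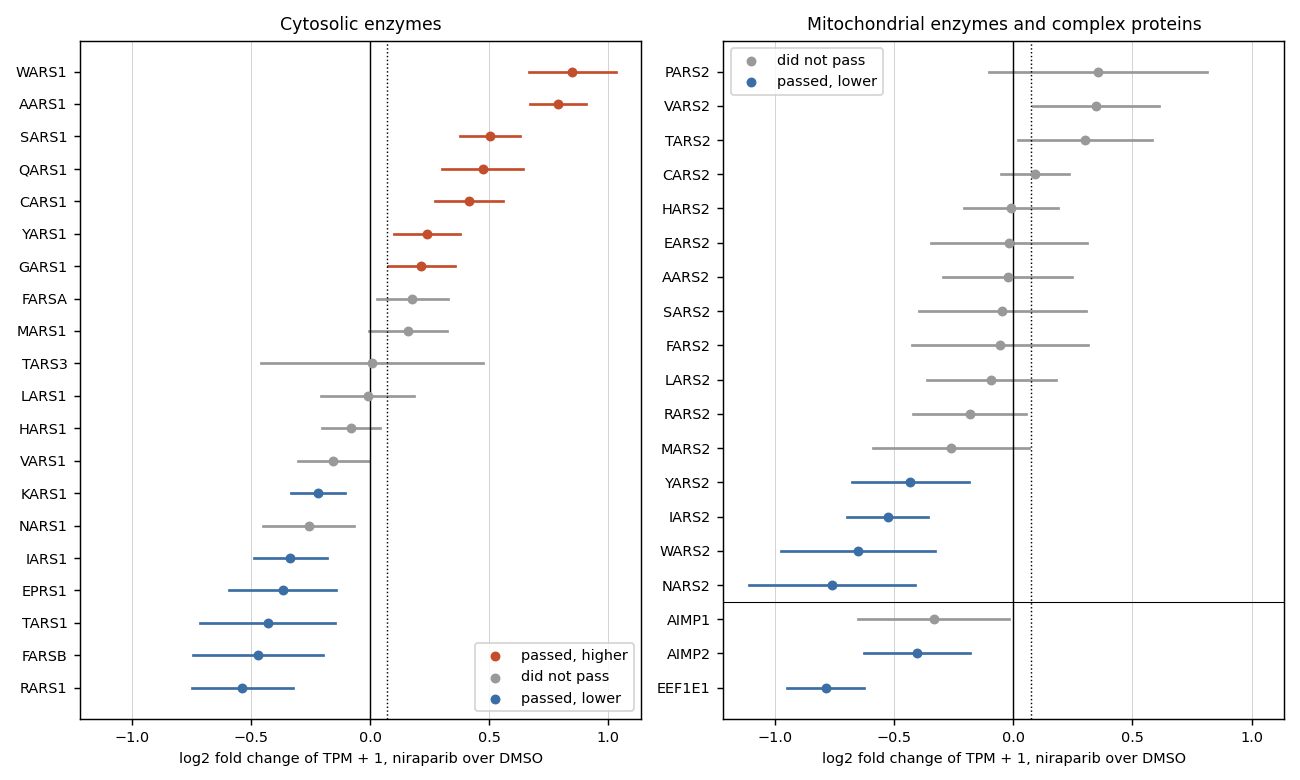
Log2 fold change of 39 of the 41 genes, niraparib minus DMSO, as points with 95% limma intervals, and a dotted line at the median of all genes tested (0.07). The cytosolic enzymes run from −0.54 (RARS1) to 0.85 (WARS1), and the mitochondrial enzymes from −0.76 (NARS2) to 0.36 (PARS2).

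The genes of the multi-synthetase complex were counted apart. Of its 8 enzymes, among them EPRS1, IARS1, LARS1, MARS1, QARS1, RARS1 and KARS1, 1 was higher, 5 were lower and 2 did not pass, with a median log2 fold change of −0.28, beside 11.7% lower among all genes tested. After GC adjustment 3 of the 8 were lower, and 4 with centring as well. With the 3 other proteins of the complex, 7 of 11 genes were lower, and 5 and 6 of 11 in the GC-adjusted forms. Of the 13 cytosolic enzymes outside it, 6 were higher, 2 lower and 5 did not pass, with a median of 0.18. The difference between these groups was not tested. Their median GC content also differed, 42.8% in the complex and 51.7% outside it. The summed TPM of the 8 enzymes was 784 and 816 with niraparib and 805 and 798 with DMSO, which overlapped. By mean TPM, QARS1 and MARS1 were the most abundant of the 8 with niraparib, and MARS1 and KARS1 with DMSO. In DMSO replicate 1 alone QARS1 was highest, at 171.6 TPM, with KARS1 at 169.1 and MARS1 at 167.4 TPM. Outside the complex the sum was 1118 and 1124 with niraparib and 969 and 994 with DMSO.

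EEF1E1, a small protein that binds MARS1 in the complex (chromosome 6, 8073593 to 8102792), was lower with niraparib. It had 55.3 and 58.5 TPM with niraparib, against 95.9 and 102 TPM with DMSO. The log2 fold change was −0.79 ± 0.06, with adjusted p = 0.00277, and the call was kept in all 15 alternatives. AIMP2, a scaffold protein of the complex, had 29.0 and 29.3 TPM with niraparib, against 41.6 and 36.4 TPM with DMSO, a log2 fold change of −0.40 ± 0.09 with adjusted p = 0.0241. Its adjusted p was 0.0931 without niraparib replicate 1, 0.0747 without niraparib replicate 2 and 0.111 without DMSO replicate 1. AIMP1, which binds RARS1, did not pass (log2 fold change −0.33, adjusted p = 0.0976), with 12.9 and 16.1 TPM with niraparib and 18.6 and 18.2 TPM with DMSO. Without niraparib replicate 2 it passed (adjusted p = 0.0464). The summed TPM of the 3 genes was 97.2 and 104 with niraparib and 156 and 157 with DMSO.

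Of the mitochondrial enzymes, asparaginyl-tRNA synthetase NARS2 (chromosome 11, 78146666 to 78286239) was lower with niraparib. It had 6.87 and 8.76 TPM with niraparib, against 13.9 and 13.8 TPM with DMSO. The log2 fold change was −0.76 ± 0.14, with adjusted p = 0.0146. The niraparib libraries were further apart than the DMSO libraries, and both were lower. Tryptophanyl-tRNA synthetase WARS2 had 4.34 and 4.53 TPM with niraparib, against 7.22 and 7.89 TPM with DMSO, a log2 fold change of −0.65 ± 0.13 with adjusted p = 0.0179. Isoleucyl-tRNA synthetase IARS2 (chromosome 1, 220267474 to 220321383) had 35.9 and 37.3 TPM with niraparib, against 54.6 and 51.9 TPM with DMSO. Its log2 fold change was −0.53 ± 0.07, with adjusted p = 0.00611. IARS2 was the only mitochondrial call kept without any 1 library.

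Tyrosyl-tRNA synthetase YARS2 had 29.3 and 31.0 TPM with niraparib, against 44.4 and 37.9 TPM with DMSO, a log2 fold change of −0.43 ± 0.10 with adjusted p = 0.0261. It was lower in both niraparib libraries. Without niraparib replicate 1 the adjusted p was 0.110 for YARS2 and 0.0733 for WARS2. Without niraparib replicate 2 it was 0.0684 for YARS2 and 0.0550 for WARS2. Without DMSO replicate 1 it was 0.107 for YARS2, 0.0619 for WARS2 and 0.0572 for NARS2, and without DMSO replicate 2 it was 0.0866 for WARS2 and 0.0520 for NARS2.

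The other 12 mitochondrial enzymes did not pass. PARS2 (proline), VARS2 (valine), TARS2 (threonine) and CARS2 (cysteine) had positive log2 fold changes of 0.36, 0.35, 0.30 and 0.09. VARS2 was nearest to the threshold, with 23.5 and 23.0 TPM with niraparib, against 19.6 and 16.6 TPM with DMSO (adjusted p = 0.0572). HARS2 (histidine), EARS2 (glutamate), AARS2 (alanine), SARS2 (serine), FARS2 (phenylalanine) and LARS2 (leucine) were between −0.01 and −0.09, and their groups overlapped. RARS2 (arginine) and MARS2 (methionine) were at −0.18 and −0.26, with adjusted p = 0.188 and 0.180. CARS2 was the most abundant of the 17, with 70.2 and 73.1 TPM with niraparib and 67.0 and 67.4 TPM with DMSO. PARS2 was among the least abundant, with 3.94 and 3.92 TPM with niraparib and 3.36 and 2.40 TPM with DMSO.

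The cytosolic and mitochondrial enzymes for the same amino acid were then set side by side, in 19 pairs. EPRS1, TARS2 and FARS2 enter 2 pairs each. The cytosolic log2 fold change was above the mitochondrial one in 11 of 19, with a median difference of 0.08, so the pairs did not move to one side. Tryptophan stood furthest out. WARS1 over WARS2 was 19.4 and 17.0 with niraparib and 6.30 and 5.44 with DMSO. For alanine, AARS1 over AARS2 was 13.4 and 13.7 with niraparib and 7.31 and 8.05 with DMSO. For tyrosine, YARS1 over YARS2 was 4.20 and 3.83 with niraparib and 2.24 and 2.77 with DMSO. In these 3 pairs the niraparib ratios were above both DMSO ratios, as in 9 of the 19 pairs. They were below both in 8 pairs and overlapped in 2. For comparison, the groups did not overlap for 70.9% of all single genes tested, and no such share was computed for ratios. Among the 8, TARS1 over TARS2, for threonine, was 3.23 and 4.57 with niraparib and 5.69 and 7.29 with DMSO. For leucine the groups overlapped, and LARS1 over LARS2 was 3.58 and 3.65 with niraparib and 2.98 and 3.89 with DMSO. No test was run on the ratios.

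**Figure D3:**
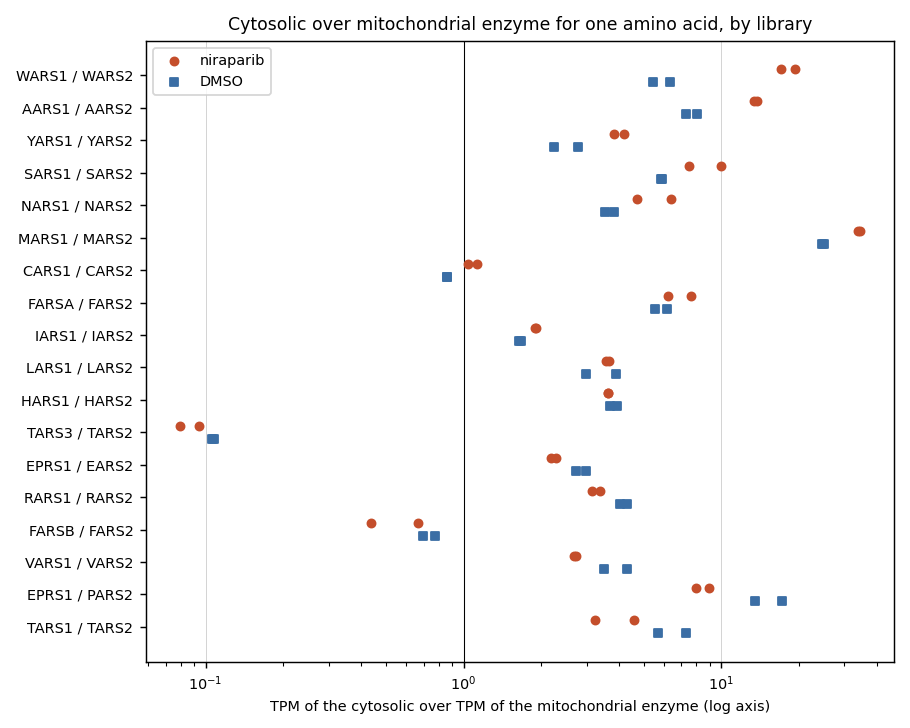
Ratio of cytosolic to mitochondrial TPM for 18 of the 19 pairs in each library, on a log axis, ordered by the difference of the log2 fold changes, with circles for niraparib and squares for DMSO. WARS1 over WARS2 has the widest gap between groups, and LARS1 over LARS2 has overlapping groups.

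The synthetases also fall into 2 structural classes with unrelated catalytic domains. Of the 18 genes of class I, 4 were higher and 5 lower, and of the 19 of class II, 3 were higher and 6 lower. EPRS1, with a domain of each, was left out. The median log2 fold changes were −0.06 and −0.05. The counts of the classes were thus alike, and no test of the difference was run.

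The fold changes moved with GC content. Across genes, Spearman's rho between the GC content of the longest annotated transcript and the log2 fold change was 0.51 over 12371 genes and 0.64 over the 41 genes. Genes share their libraries and are not independent replicates. The 7 higher genes had a median GC content of 51.9%, the 14 lower genes 42.6% and the 20 others 51.8%. Between the 2 niraparib libraries alone, rho over the 41 genes was 0.58, and between the 2 DMSO libraries it was 0.18. The part of GC content in the calls was not tested, but each call was repeated after the trend had been removed from each library. In both forms of this adjustment 5 of 7 higher calls were kept, those of WARS1, AARS1, SARS1, CARS1 and GARS1. Of the lower calls 9 of 14 were kept, those of AIMP2, EEF1E1, KARS1, IARS1, RARS1, YARS2, IARS2, WARS2 and NARS2. After GC adjustment with centring, the log2 fold change was 0.68 for WARS1, 0.61 for AARS1, −0.50 for EEF1E1 and −0.66 for NARS2. GARS1, at a GC content of 38.9%, moved away from 0, to 0.42.

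**Figure D4:**
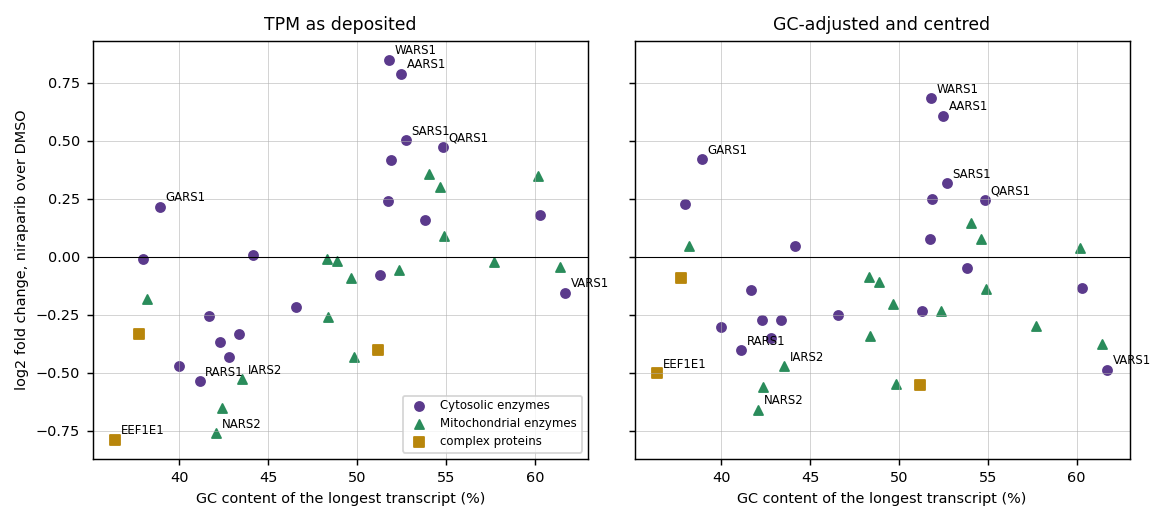
Log2 fold change, niraparib minus DMSO, against GC content of the longest transcript in percent, for the values as deposited and after GC adjustment and centring, with 39 of the 41 genes drawn. As deposited, genes of higher GC content lie higher (rho 0.64 over the 41 genes), and WARS1 and AARS1 lie highest in both panels.

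Several of the genes share annotated exon bases with a neighbour, and the strand used in counting is not given in the sources used here. MARS1 shares 355 of its 7028 exon bases with DDIT3 on the opposite strand, and DDIT3 rose, with 59.2 and 61.4 TPM with niraparib and 14.0 and 9.43 TPM with DMSO. AIMP2 shares 532 of 1828 exon bases with EIF2AK1, YARS1 shares 396 with S100PBP, and WARS1 shares 287 with WDR25, all on the opposite strand. SARS2 shares 1492 of 3098 bases with another protein-coding entry on its own strand, and EEF1E1 shares 393 with a readthrough entry. On the opposite strand, HARS1 shares 1090 of 14155 bases with WDR55 and 108 with HARS2. AIMP1 shares 476 with TBCK and CARS2 shares 334 with ING1, also on the opposite strand. The values of genes with such an overlap are uncertain to that extent, and not all of them are named here.

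Other genes of the pathway were taken from lists. The amino acid response list holds genes of the GCN2 and ATF4 response, with the genes of GCN2 and ATF4 themselves among them. Of its 34 genes 31 were in the table, of which 30 were tested. Of these, 16 were higher, 2 lower and 12 not called, with a median log2 fold change of 0.52. The cause of these changes was not tested, and the list does not show that amino acids ran short. TRIB3, a pseudokinase induced by ATF4, had 100.1 and 99.99 TPM with niraparib, against 23.0 and 24.0 TPM with DMSO. PPP1R15A, which directs dephosphorylation of eIF2 alpha, had a log2 fold change of 1.36, DDIT4, an inhibitor of mTORC1 signalling, had 1.42, and CEBPB, a C/EBP factor, had 1.38, with adjusted p = 0.000844, 0.00150 and 0.00160. ATF4 and EIF2AK4, which encodes GCN2, were looked up after the values were seen. ATF4 had 200 and 227 TPM with niraparib and 205 and 255 TPM with DMSO, which overlapped (adjusted p = 0.551), and EIF2AK4 did not pass either (adjusted p = 0.226). SLC7A5, an amino acid transporter, and XPOT, the exporter of tRNA, were the 2 lower genes, with log2 fold changes of −0.68 and −0.35.

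Of the 28 tested genes of tRNA maturation and export, 0 were higher and 12 lower, with a median log2 fold change of −0.26. SSB, which binds the 3′ ends of new tRNA transcripts, was at −0.86 (adjusted p = 0.00334). TRMT10C, a subunit of mitochondrial RNase P, was at −0.61, FAM98B, of the tRNA ligase complex, was at −0.62, and RPP30, of nuclear RNase P, was at −0.43. Of the 16 genes of mitochondrial translation factors tested, 1 was higher and 7 were lower, with a median of −0.35. TSFM, the mitochondrial exchange factor for the elongation factor, was at −0.39 (adjusted p = 0.00750), and MRPL58 and GFM1 were at −0.52 and −0.43. MTG2, a GTPase of the mitochondrial ribosome, was at 0.43, and with GC content adjusted and libraries centred at 0.15 (adjusted p = 0.153).

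Of the 12 genes of tRNA editing and other aminoacylation factors tested, 0 were higher and 2 lower. DTD2, a deacylase of wrongly charged tRNA, had 6.93 and 7.48 TPM with niraparib, against 14.6 and 14.5 TPM with DMSO, and PSTK, a kinase on the path to selenocysteinyl-tRNA, was at −0.53 (adjusted p = 0.0141). Of the 8 cytosolic elongation factor genes, 4 were higher, 3 lower and 1 not called. EEF1A2, a form of the factor that brings charged tRNA to the ribosome, had 62.2 and 57.7 TPM with niraparib, against 23.9 and 23.5 TPM with DMSO, and EEF2, the translocation factor, was at 0.41. With GC content adjusted and libraries centred EEF2 was at 0.11 and EEF1D, another of the higher genes, named after its values were seen, turned to −0.16 in place of 0.16. EIF5A was at −0.43. EEF1G, at 0.20, was at 0.00 with GC content adjusted and libraries centred (adjusted p = 0.975). These counts stand beside 20.8% higher and 11.7% lower among all genes tested.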

How the data were processed

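All 4 RNA-Seq libraries of Cal-62 cells, 2 of niraparib and 2 of DMSO, were grouped by their labels. The methods name Trim Galore for trimming and STAR with hg19 for alignment. HISAT2, hg38 and mm10 stand in the submitters' processing notes instead. The authors deposited their values as TPM, rounded to 2 decimals. The tool and the annotation behind them are not given in the sources used here. Depth per library is unknown.

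Genes with at least 1 TPM in at least 2 libraries were fitted as log2(TPM + 1) in R 4.3.3, using the trend and robust options of limma 3.58.1 and two-sided tests, and p was adjusted by Benjamini-Hochberg. Scripts were tested on simulated data. Coordinates, exon overlap and GC content came from GENCODE release 44 lifted to GRCh37, with GC content for 14652 of the 16717 genes (87.6%), removed per library by loess with a span of 0.5. Promoters came from RefSeq on GRCh38.p14. Alternatives were other scalings, filters, pseudocounts and priors, a replicate block, GC adjustment, a 1.5-fold minimum and leaving out each library.

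The members and the lists were chosen with earlier results of these data known. The rule was to name every member and to give the TPM in each library of those that passed. Counts, sums and medians cover all 41, but 2 of them are not reported by name or drawn here. From each other list up to 4 genes with the smallest p past the threshold are named.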

Additional observations from a re-analysis of the deposited data

How the results depend on the processing

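Among the 41 genes, no fold change of a called gene turned its direction under any of the 15 alternatives. The calls of WARS1, AARS1 and EEF1E1 were the same in all of them. Leaving out 1 library at a time, the calls of 5 of the 7 higher genes, 3 of the 14 lower genes and 19 of the 20 others were the same in all 4 fits. The number of lower cytosolic genes then ran from 1 to 7, in place of 7, and of lower mitochondrial genes from 1 to 3, in place of 5. The cytosolic median log2 fold change ran from −0.082 to −0.019, in place of −0.01, and the mitochondrial median from −0.14 to −0.010, in place of −0.06. Over all genes tested, 1211 to 1601 were then higher and 639 to 1186 lower, in place of 2780 and 1559. A library left alone in its group was assumed to vary like those of the other group.

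With scaling by the median of ratios the cytosolic median was −0.11 and the mitochondrial median −0.15, and with scaling by the upper quartile the cytosolic median was −0.063. With GC adjustment the medians were −0.070 for cytosolic and −0.17 for mitochondrial genes, and with centring as well −0.13 and −0.23, where all genes had 1498 higher and 1816 lower calls. Without trend and robust priors 3 cytosolic and 3 mitochondrial genes were lower, and 2175 genes of all were higher and 1017 lower. With a minimum of 1.5-fold, 2 cytosolic genes were higher, 0 cytosolic genes were lower and 2 mitochondrial genes were lower, and this follows from the added fold minimum. Beyond that, the cause of these shifts was not tested.

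The deviations of same-numbered libraries correlated at −0.01 over 13377 genes. With 2 libraries a group, this cannot show whether libraries of the same number shared a culture or a day, and the sources do not say. With a replicate block 5 of the 41 genes were higher and 13 lower, and YARS1, GARS1 and EPRS1 were not called (adjusted p = 0.0525, 0.0669 and 0.0511 by limma). With no read counts, the precision of low genes such as TARS3 and PARS2 rests on the spread between 2 libraries a group. In limma it rests also on the spread of the other genes fitted.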
